A study of Arabidopsis thaliana with 8 samples.

Results

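SEPALLATA3 (SEP3) and 7 other MADS-box genes that specify the organs of the flower were measured in shoot apices of Arabidopsis thaliana that were kept in short days. The genes were taken by their locus names: SEP3 (AT1G24260), SEP1 (AT5G15800), SEP2 (AT3G02310), SEP4 (AT2G03710), PISTILLATA (PI, AT5G20240), APETALA3 (AP3, AT3G54340), AGAMOUS (AG, AT4G18960) and APETALA1 (AP1, AT1G69120). They make up 8 of the 27655 loci in the expression table. SEP3 was the member with the largest difference between the genotypes. It rose in the line that carries an artificial microRNA against PECT1, from 2.93 to 20.4 RPKM at day 10 and from 0.560 to 5.38 RPKM at day 16. RPKM scales reads by transcript length and by the depth of the library, so levels of different genes can be set side by side per length. SEP4 was present at about the same level in both genotypes, PI was low and did not pass the test, and the other 5 members were at or near 0.

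MADS-box factors of this family bind DNA as dimers and assemble into complexes of 4 proteins, which specify sepals, petals, stamens and carpels in the ABCE scheme. AP1 supplies the A function, AP3 and PI together the B function, AG the C function, and the SEP proteins the E function that joins the others in a complex. In a shoot apex that makes leaves, Polycomb proteins and repressors of flowering are known to hold down genes of this class, AG among them, and their expression is known mainly from floral meristems and flower organs.

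The 4 groups had 2 libraries each: wild type at day 10, wild type at day 16, the knockdown line at day 10 and the knockdown line at day 16. The knockdown line is pFD::amiR-PECT1, in which the promoter of FD, a bZIP gene of the shoot apex, drives an artificial microRNA against PECT1, an enzyme of phosphatidylethanolamine synthesis. All plants grew on 1/2 MS plates at 23 °C in short days, and all samples were taken at ZT 8, which is 8 h after lights on. The labels do not say how many apices went into a library, how many transgenic lines were used or whether replicates are separate cultures. The p-values therefore rest on a spread between libraries that may be technical.

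Estimated depth was 15.46 to 18.16 M reads per library, and 16180 to 16883 loci had at least 1 RPKM. PECT1, the targeted gene, was at 39.2 to 41.3 RPKM in wild type and at 34.4 to 37.1 RPKM in the knockdown line. Its difference in log2(RPKM + 1) over both ages was -0.16 ± 0.103 (SE) and did not pass limma (Benjamini-Hochberg adjusted p = 0.540). In 1 library, replicate 1 of the knockdown at day 16, nuclear genes held less of the total: 85.4% of its estimated reads, against 93.1% to 95.7% in the other 7 libraries. Of the 10 listed genes of the shoot meristem and organ boundaries, the meristem genes STM and KNAT1 were present in all libraries, at 6.31 to 17.5 and 6.20 to 10.6 RPKM. CLV3 was at 0 to 0.72 RPKM and WUS at 0 to 0.23 RPKM. Whole apices hold several cell types, so more cells of a type and more RNA per cell cannot be told apart in any of the values given here.

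The sequences around SEP3 are shown because it is the member that rose in the knockdown line. MADS-box factors bind the CArG box, a short palindrome of cytosines and guanines around a run of adenines and thymines. It was searched in its strict form, CCWWWWWWGG with W for A or T. No mismatch was allowed, so variants of the box were not counted. SEP3 lies on the minus strand of chromosome 1 (8593536 to 8596123, RefSeq annotation of TAIR10.1). The 300 bases before its start, chr1:8596124-8596423 on the minus strand, hold no CArG box, no G-box (CACGTG) and no LFY core motif (CCANTG) on either strand, so no letters are in capitals.
SEP3 upstream: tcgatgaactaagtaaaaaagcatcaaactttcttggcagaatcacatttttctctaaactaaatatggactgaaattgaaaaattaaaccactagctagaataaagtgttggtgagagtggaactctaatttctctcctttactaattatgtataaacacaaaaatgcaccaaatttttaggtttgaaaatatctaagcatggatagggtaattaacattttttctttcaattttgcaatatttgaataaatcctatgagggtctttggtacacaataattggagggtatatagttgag
A CArG box lies in intron 1 of SEP3, 998 bases from the start of the gene. The stretch chr1:8595096-8595145 on the minus strand is printed with the box in capitals, and the box itself covers bases 8595116 to 8595125. AG (chromosome 4, 10382856 to 10388539, plus strand) has a CArG box in intron 2, the long intron known to carry its regulatory sequence, in chr4:10386511-10386560.
SEP3 intron 1: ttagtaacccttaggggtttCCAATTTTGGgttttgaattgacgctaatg
AG intron 2: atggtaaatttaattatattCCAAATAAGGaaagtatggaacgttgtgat
None of the 8 members had a CArG box or a CACGTG in the 300 bases before the start, against 2.93% and 7.09% of 27444 genes. CCANTG was found in that window of SEP2, SEP4 and AP1, and in 24.8% of all genes. Between start and end of the gene a CArG box was found in SEP3, SEP2, AG and AP1, and in 16.96% of the 13565 genes of 2000 to 6000 bases. A match describes the letters in the window and does not show that a factor binds there.

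The first comparison asked how the E-class genes differed between the genotypes. The wild-type libraries of day 10 had 3.37 and 2.48 RPKM of SEP3, against 22.58 and 18.18 RPKM in the knockdown line. Those of day 16 had 0.75 and 0.37 RPKM, against 4.48 and 6.28 RPKM. Every knockdown library was above every wild-type library, also across ages, since the smallest knockdown value of 4.48 RPKM at day 16 exceeded the highest wild-type value of 3.37 RPKM at day 10. Of the 17467 genes tested, 1.74% had all 4 knockdown libraries above all 4 wild-type libraries, and the knockdown libraries were all higher in 19.9% at day 10 and in 8.39% at day 16. These values rest on an estimated 488 and 400 reads in the knockdown at day 10, and on 17 and 8 reads in wild type at day 16.

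**Figure D1:**
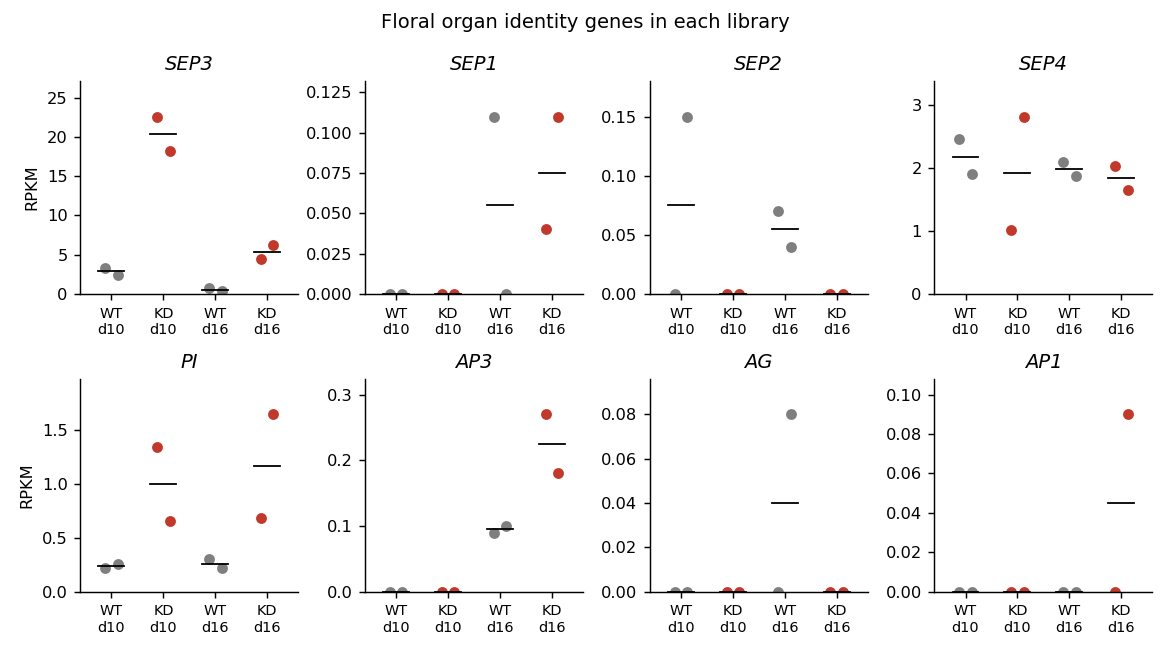
RPKM of each of the 8 genes (vertical axis, a separate scale per panel) in each library, for wild type (WT, grey) and the knockdown line (KD, red) at day 10 and day 16. Points are libraries and lines are means of 2. SEP3 ran from 0.37 to 22.58 RPKM, SEP4 overlapped between the genotypes, and SEP1, SEP2, AP3, AG and AP1 stayed below 0.3 RPKM.

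The ratio of mean RPKM, knockdown to wild type, was 6.97 for SEP3 at day 10, and the ratios of single libraries ran from 5.39 to 9.10. At day 16 the ratio was 9.61, and the ratios of single libraries ran from 5.97 to 16.97. On the log2(RPKM + 1) scale, where low genes appear to change less than they do, SEP3 rose by 2.45 ± 0.258 (SE, n = 2 per group; 95% confidence interval 1.87 to 3.02) at day 10, with a Benjamini-Hochberg adjusted p of 0.00552 in limma. At day 16 it rose by 2.03 ± 0.258 (1.45 to 2.60), with an adjusted p of 0.0190 in limma. Averaged over both ages the difference was 2.24 ± 0.182 (1.83 to 2.64), with an adjusted p of 0.000414 in limma. Genes that passed and were higher in the knockdown line made up 0.0229% of those tested at day 10, 0.0229% at day 16 and 0.0687% for the mean of both ages, which is 4, 4 and 12 genes. In all, 13 (0.0744%), 20 (0.115%) and 43 (0.246%) genes passed. SEP3 was 6th at day 10 and 18th at day 16 among the 17467 genes ordered by difference in log2(RPKM + 1). By the authors' deposited fold it was 135th of 321 higher loci at day 10 and 89th of 211 at day 16.

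The call at day 16 depended on single libraries. Without any of the 4 libraries of day 16 the adjusted p lay between 0.0695 and 0.239, and without replicate 1 of the knockdown, the library with fewer nuclear reads, it was 0.0893 at a difference of 2.23. At day 10 the adjusted p was 0.0959 without replicate 2 of wild type, and 0.0616 when replicate 1 of the knockdown was left out. Without the limit on low values neither age passed (0.0535 and 0.117), and at day 16 neither did a pseudocount of 4 (difference 1.04, 0.0900) or voom on estimated reads (3.36, 0.259). The mean of both ages passed without any 1 library, with an adjusted p of 0.00116 to 0.00498.

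**Figure D2:**
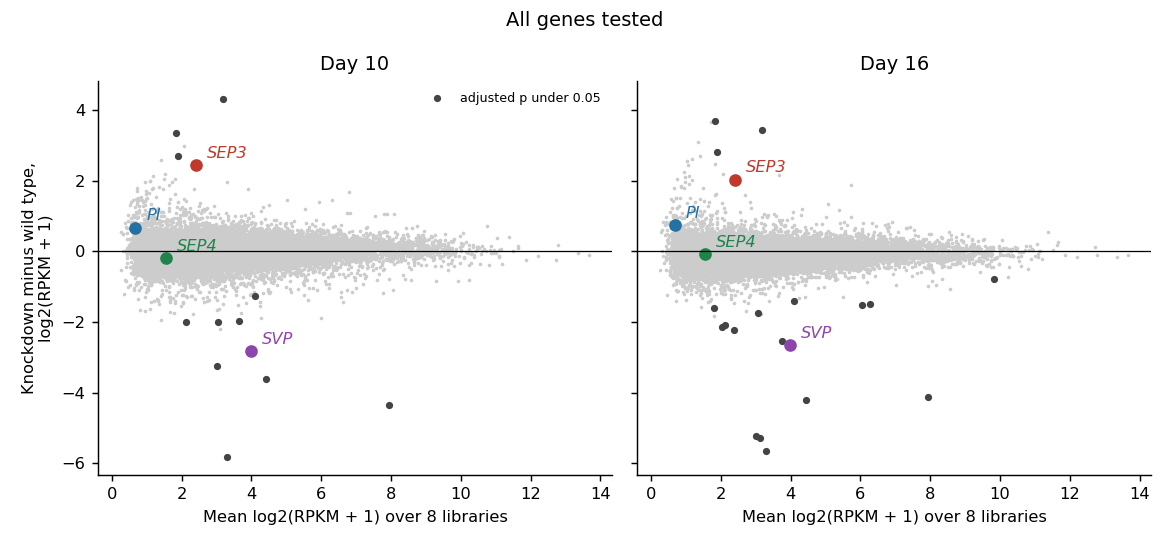
Difference in log2(RPKM + 1), knockdown minus wild type (vertical axis), against the mean log2(RPKM + 1) over the 8 libraries (horizontal axis) for 17467 genes at day 10 (left) and day 16 (right). Dark points passed at an adjusted p under 0.05. SEP3 lies at 2.45 and 2.03 and SVP at -2.83 and -2.65, while PI and SEP4 lie among genes that did not pass.

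SEP3 also differed with age. In the knockdown line it fell between day 10 and day 16 by 1.75 on the log2(RPKM + 1) scale (SE 0.258, adjusted p = 0.0295 in limma), and the ratio of mean RPKM, day 10 to day 16, was 3.79. Genes that passed and fell with age in the knockdown line were 0.0344% of those tested, 6 in number. In wild type the ratio of means was 5.22, and the difference from day 10 to day 16 was -1.33 ± 0.258 with an adjusted p of 0.119 in limma, which did not pass. In wild type 39 genes (0.223%) passed with age, of which 5 (0.0286%) were lower at day 16, and in the knockdown line 47 (0.269%) passed. The 2 ages did not overlap in either genotype, and the same order was seen in 10.6% of all genes in wild type and 17.9% in the knockdown. The genotype effect on SEP3 was not shown to differ between the ages, with a difference of -0.42 ± 0.364 (95% confidence interval -1.23 to 0.40, adjusted p = 1.00 in limma), and its sign changed with a pseudocount of 0.25 and with voom. No gene passed for that difference (0.0%), and 288 genes (1.65%) had an unadjusted p under 0.05. The fall with age in the knockdown line was lost without any of the 4 knockdown libraries, with an adjusted p of 0.112 to 0.160.

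Set among the 39 listed MADS-box genes by mean RPKM, SEP3 moved at day 10 from place 7 in wild type to place 1 in the knockdown line. Its places at day 16 were 16 and 6. Among all 27655 loci its place at day 10 was 13632 in wild type against 4590 in the knockdown line, and at day 16 it was 17845 against 11088. The knockdown line at day 16 still had 1.84 times the mean RPKM of wild type at day 10, with single-library ratios of 1.33 to 2.53.

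**Figure D3:**
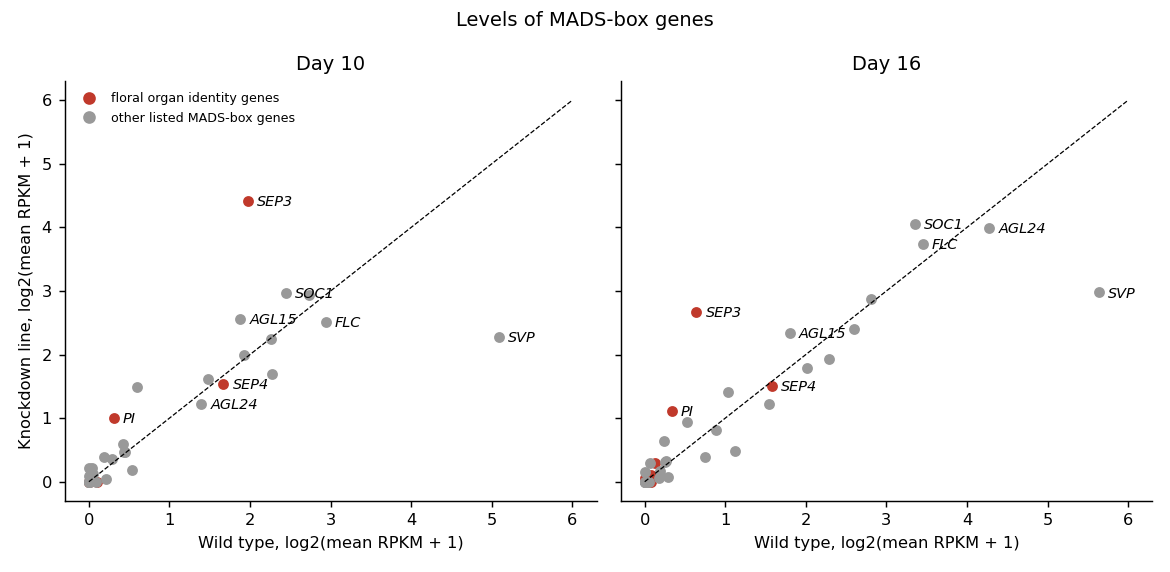
Level of the 39 listed MADS-box genes as log2(mean RPKM + 1) in wild type (horizontal axis) and in the knockdown line (vertical axis) at day 10 and day 16, with floral organ identity genes in red and the other genes in grey. The dashed line marks equal levels. SEP3 and PI lie above the line at both ages, SVP lies below it, and SEP4 lies near it.

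SEP4 is an E-class gene that also acts in meristem identity (chromosome 2, 1129229 to 1131838, plus strand). It had 2.46 and 1.90 RPKM in wild type at day 10 against 1.01 and 2.82 RPKM in the knockdown line. Its day 16 values were 2.09 and 1.88 RPKM in wild type against 2.04 and 1.66 RPKM. The genotypes overlapped at both ages, and the 2 knockdown libraries of day 10 were the lowest and the highest of all 8. The difference over both ages was -0.13 ± 0.225 on the log2(RPKM + 1) scale (95% confidence interval -0.63 to 0.37, adjusted p = 0.835 in limma). This interval excludes a change as large as that of SEP3, whose interval began at 1.83. In wild type at day 16 SEP4 was above SEP3 in both libraries, and in the knockdown line SEP3 was above SEP4 in all 4 libraries.

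SEP1 and SEP2, the other E-class genes, which act redundantly with SEP3 in flowers, stayed near 0. SEP1 lies on the minus strand of chromosome 5 (5151334 to 5154253) and SEP2 on that of chromosome 3 (464279 to 467151). SEP1 was at 0 in 5 libraries, and had 0.11, 0.04 and 0.11 RPKM in replicate 1 of wild type at day 16 and in replicates 1 and 2 of the knockdown at day 16. SEP2 was at 0 in all 4 knockdown libraries and in 1 wild-type library, and at 0.15, 0.07 and 0.04 RPKM in the other 3 wild-type libraries. These values are an estimated 7 reads over all libraries for each gene. A value of 0 allows up to 0.110 to 0.115 RPKM for SEP1 and 0.109 to 0.127 RPKM for SEP2, taken as 3 reads in that library and for counting error only. SEP1 and SEP2 share 86.4% of aligned coding bases, and an exact run of at most 32 bases, so the authors' counting could have split a few reads between them. Coding identity of SEP3 with the other 3 SEP genes was 66.3% to 71.1%, with no exact run over 28 bases. SEP1 also overlaps 2 genes on the opposite strand, and no source used here gives the use of strand in counting.

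Of the B-class pair, PI was above AP3 in every library. PI lies on the plus strand of chromosome 5 (6828904 to 6831515) and AP3 on the minus strand of chromosome 3 (20119140 to 20121314). Wild type at day 10 had 0.22 and 0.26 RPKM of PI, against 1.35 and 0.66 RPKM in the knockdown. The day 16 values were 0.30 and 0.22 RPKM in wild type against 0.69 and 1.65 RPKM. All 4 knockdown libraries were above all 4 wild-type libraries, an order seen in 1.74% of the genes tested. PI entered the test only through the knockdown libraries at 1.35 and 1.65 RPKM. The limit on low values thus favoured a higher knockdown, and the order is a description. The ratio of mean RPKM was 4.19 at day 10 and 4.50 at day 16, on an estimated 5 to 7 reads per wild-type library and 14 to 39 per knockdown library. The difference was 0.67 ± 0.316 at day 10 and 0.75 ± 0.316 at day 16 on the log2(RPKM + 1) scale, and neither passed limma (adjusted p = 0.752 and 0.764). Over both ages it was 0.71 ± 0.223 and did not pass either (adjusted p = 0.283 in limma). Like the order, these genotype differences of PI are a description. PI did not differ with age beyond its spread, with differences of 0.02 in wild type and 0.10 in the knockdown.

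AP3, whose product works as a dimer with that of PI, was at 0 in all 4 libraries of day 10. It reached 0.09 and 0.10 RPKM in wild type at day 16, against 0.27 and 0.18 RPKM in the knockdown. The day 16 genotypes did not overlap, an order seen in 8.39% of the genes tested. The values are an estimated 4 reads in wild type against 9 in the knockdown. A value of 0 at day 10 allows up to 0.139 to 0.145 RPKM, which is above both wild-type values of day 16. Without the limit on low values the difference at day 16 was 0.16 ± 0.0770 on the log2(RPKM + 1) scale and did not pass limma (adjusted p = 0.783).

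AG and AP1 were almost undetected. AG, the C-class gene of stamens and carpels, was at 0.08 RPKM in replicate 2 of wild type at day 16 and at 0 in the other 7 libraries. AP1, the A-class gene that marks the start of floral meristems (chromosome 1, 25982294 to 25986349, minus strand), was at 0.09 RPKM in replicate 2 of the knockdown at day 16 and at 0 in the other 7 libraries. Each value is an estimated 3 reads. A value of 0 allows up to 0.0796 to 0.0935 RPKM for AG and 0.0970 to 0.111 RPKM for AP1, so a difference was not detectable at this depth. At day 10 the knockdown libraries had no read of SEP1, SEP2, AP3, AG or AP1, and neither had replicate 1 of wild type. Replicate 2 of wild type had an estimated 4 reads of SEP2 and none of the others.

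**Figure D4:**
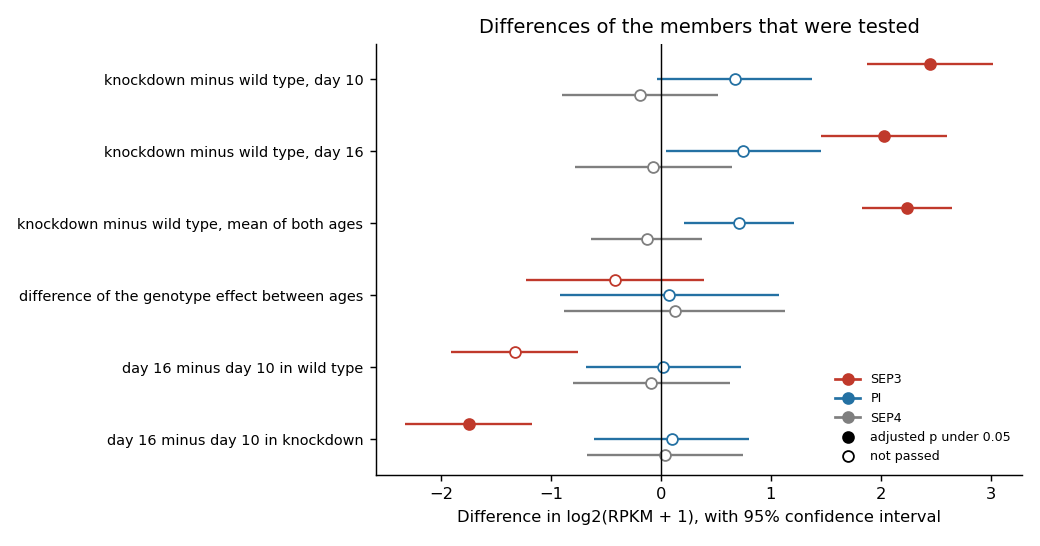
Differences in log2(RPKM + 1) (horizontal axis) for the 3 genes that were tested, SEP3, PI and SEP4, in 6 contrasts, with 95% confidence intervals as bars. Filled points passed at an adjusted p under 0.05. SEP3 passed in both ages, in their mean and with age in the knockdown line, and PI and SEP4 passed in none. PI entered the test only through knockdown libraries, so its genotype differences and their intervals are a description.

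The regulators of these genes were taken from 2 lists. SVP, AGL24 and SOC1 are MADS-box factors known to repress SEP3 together with SAP18 and the Polycomb-associated protein LHP1. SVP had 34.07, 32.01, 43.14 and 54.15 RPKM in wild type, day 10 before day 16, against 3.15, 4.55, 7.08 and 6.67 RPKM in the knockdown line. All its knockdown libraries were below all wild-type libraries, as in 4.93% of the genes tested. SVP fell by 2.74 on the log2(RPKM + 1) scale over both ages (SE 0.145, adjusted p = 1.73e-05 in limma). The difference was -2.83 at day 10 and -2.65 at day 16, and it passed at each. Genes that passed and were lower made up 0.0515% of those tested at day 10, 0.0916% at day 16 and 0.177% over both ages. Over the 8 libraries the Pearson correlation of SVP with SEP3 was -0.924, the 31st lowest of 17466 genes, over libraries that share genotype and age.

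The other 4 known repressors did not pass. AGL24, which also promotes flowering, was at 1.1 to 1.85 RPKM in all libraries of day 10 and at 14.72 to 18.62 RPKM in all libraries of day 16. It rose with age by 2.89 in wild type (adjusted p = 0.000694 in limma) and by 2.78 in the knockdown line (0.00143), where 0.195% and 0.235% of all genes passed and rose. SEP3 was lower at day 16 than at day 10 in every library pair of both genotypes. That order was seen in 10.6% of all genes in wild type and in 17.9% in the knockdown line. The SEP3 difference with age did not pass in wild type (adjusted p = 0.119 in limma), and its call in the knockdown line depended on single libraries. A link between AGL24 and SEP3 was not tested. AGL24 passed with age in all 16 alternatives for each genotype. Between genotypes AGL24 differed by -0.23 ± 0.151 (adjusted p = 0.570). SOC1, an integrator of flowering signals, had 3.99 and 4.90 RPKM in wild type at day 10 against 6.13 and 7.55 RPKM in the knockdown line. Its day 16 values were 8.92 and 9.55 RPKM in wild type against 11.91 and 19.33 RPKM. The genotypes did not overlap at either age. The same order was seen in 19.9% of the genes tested at day 10 and in 8.39% at day 16. The SOC1 difference of 0.59 ± 0.176 over both ages did not pass limma (adjusted p = 0.271). SAP18 (0.23 ± 0.105, adjusted p = 0.419) and LHP1 (-0.10 ± 0.151, adjusted p = 0.798) did not pass either.

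Of the 17 tested among 20 listed repressing regulators, 1 fell between genotypes at each age and over both, which was SVP, and none rose. The median difference over both ages was -0.16 on the log2(RPKM + 1) scale, against -0.06 over all genes tested. Among the Polycomb and corepressor genes with the smallest p were LUG (-0.33 ± 0.153, adjusted p = 0.433), EMF2 (-0.31 ± 0.162, 0.475), LUH (-0.23 ± 0.156, 0.567) and SEU (-0.27 ± 0.199, 0.608). CLF, the Polycomb methyltransferase of AG, was at -0.06 ± 0.178 (0.910), and AP2, a repressor of AG, at -0.02 ± 0.147 (0.971). The last 2 values changed sign under median-of-ratios scaling.

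Of 21 listed activating regulators 16 were tested, and 0 passed in either direction by limma, or by voom on estimated reads, in the genotype contrasts. At an unadjusted p under 0.05 there were 2 over both ages, PAN and LMI1, and 12.0% of all genes tested (2093) had such a p. The median difference of the 16 over both ages was 0.0088 on the log2(RPKM + 1) scale, against -0.06 over all genes tested. LFY, which activates AP1, AP3, PI and AG in floral meristems, was at 0.49 to 0.67 RPKM in wild type at day 10, against 0.80 to 1.15 RPKM in the knockdown line. The day 16 values overlapped, at 0.30 to 0.45 and 0.23 to 1.00 RPKM, and its difference over both ages was 0.26 ± 0.219. LFY entered the test only through 2 knockdown libraries, at 1.15 and 1.00 RPKM, so this difference is a description. FT, the florigen, was at 0 in all 4 wild-type libraries and in replicate 1 of the knockdown at day 10, and at 0.18, 0.07 and 0.28 RPKM in the other 3 knockdown libraries. FT did not reach the limit for testing. Values this low rest on few reads and a value of 0 does not show absence, so they are a description. FD, whose promoter drives the microRNA, was at 1.73 to 2.38 RPKM in wild type. It was at 1.05 and 1.23 RPKM in the knockdown of day 10, and at 2.49 and 2.57 RPKM in that of day 16 (-0.13 ± 0.174 over both ages, adjusted p = 0.782). Those with the smallest p were PAN, a bZIP activator of AG (-0.59 ± 0.177, adjusted p = 0.272), LMI1, a target of LFY (0.48 ± 0.184, 0.360), the homeobox gene PNF (0.34 ± 0.202, 0.522) and FDP, a relative of FD (0.29 ± 0.182, 0.538).

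Among the other 31 listed MADS-box genes 11 were tested, and SVP was the 1 that passed between genotypes. CAL, the closest relative of AP1, was at 0 to 0.05 RPKM in wild type and 0 to 0.44 RPKM in the knockdown line, with the highest value in the library that also had the reads of AP1. FUL, another relative of AP1, was at 0.13 to 0.89 RPKM in wild type and at 0.09 to 0.42 RPKM in the knockdown line. AGL6, the nearest relative of the SEP genes, was at 0 to 0.35 RPKM in wild type and 0 to 0.29 RPKM in the knockdown line. Of the relatives of AG, SHP1 was at 0.31 to 0.55 RPKM in wild type and 0.47 to 1.12 RPKM in the knockdown line, SHP2 at 0.04 to 0.27 and 0 to 0.10 RPKM, and STK was at 0 in all 8 libraries. None of these 6 was tested, and their ranges over both ages overlapped between the genotypes. Within an age, the knockdown was higher without overlap for SHP1 at day 10 and day 16 and for CAL at day 10. It was lower without overlap for FUL and SHP2 at day 16. Of the genes tested, 19.9% at day 10 and 8.39% at day 16 had all knockdown libraries higher. The share with all knockdown libraries lower was not counted within an age, so FUL and SHP2 have no share beside them. At day 16 the difference was positive in 32.46% of all genes tested, so lower values were the more common direction. The order of these low values is a description. MAF5 (0.65 ± 0.230, adjusted p = 0.333), AGL15 (0.64 ± 0.228, 0.333), MAF3 (-0.43 ± 0.191, 0.419) and MAF2 (0.14 ± 0.144, 0.724) had the next smallest p, and none passed limma. MAF5 was at 0.18 to 1.37 RPKM in wild type and at 1.17 to 2.16 RPKM in the knockdown line. It entered the test mainly through knockdown libraries, so its difference is a description. The MAF genes stand beside each other and are similar in sequence, so their values are uncertain where reads are shared.

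Genes that act below the organ identity factors, or later in flower organs, showed no call between genotypes by limma. Of 16 listed target genes 7 were tested and 0 passed by limma or by voom, with a median difference of 0.03. At an unadjusted p under 0.05 there was 1 over both ages, NAP, against the 12.0% of all genes. NAP, a target of AP3 and PI, was at 3.42 and 2.14 RPKM in wild type at day 16 against 0.62 and 0.88 RPKM in the knockdown line, and at 0 to 0.14 RPKM in all 4 libraries of day 10. It entered the test only through the wild-type libraries of day 16, so its differences are a description. NUB (-0.39 ± 0.186, adjusted p = 0.438), PTL (0.11 ± 0.196, 0.837) and ROXY1 (0.09 ± 0.165, 0.843), which act in petals, stamens or organ boundaries, did not pass. NUB was at 0.95 to 2.05 RPKM in wild type and at 0.60 to 1.09 RPKM in the knockdown line. It entered the test mainly through wild-type libraries, so its difference is a description too. Of 8 markers of anthers, carpels and ovules none reached the limit for testing, and 5 were at 0 in all libraries, namely CRC, STK, MS1, DYT1 and SUP. The summed level of the 8 was 0.47 to 0.90 RPKM in wild type and 0.47 to 1.12 RPKM in the knockdown line. SHP1 was at 0.31 to 0.55 RPKM in wild type and at 0.47 to 1.12 RPKM in the knockdown line. It was higher in the knockdown line without overlap at each age, as in 19.9% of the genes tested at day 10 and 8.39% at day 16. SHP2 and AMS, the other markers above 0, were at most at 0.27 and 0.21 RPKM.

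The marker lists of other tissues are given beside these results. The summed level of 8 leaf mesophyll markers was 41401 to 42396 RPKM in wild type and 34426 to 43366 RPKM in the knockdown line at day 10, and 32658 to 37447 and 31920 to 32015 RPKM at day 16. That of 9 vascular markers was 219 to 231 and 235 to 244 RPKM at day 10, and 298 to 304 and 290 to 413 RPKM at day 16. The sum of 10 meristem and boundary markers was 39.0 to 39.8 and 38.9 to 49.3 RPKM at day 10, and 49.2 to 58.0 and 54.5 to 63.0 RPKM at day 16. None of the tested members of these 3 lists passed between genotypes by limma or voom. Over both ages 1 of each list had an unadjusted p under 0.05 in limma, against the 12.0% of all genes. The difference over both ages was positive in 4 of 7 tested meristem and boundary markers, 1 of 8 mesophyll markers and 7 of 9 vascular markers, and in 38.92% of all genes tested. Examples are STM (0.35 ± 0.142, adjusted p = 0.386), KNAT1 (0.32 ± 0.175, 0.485), ATH1 (-0.21 ± 0.211, 0.713) and CUC3 (-0.22 ± 0.247, 0.735) of the meristem and boundary, and CA1 (-0.31 ± 0.0947, 0.278) and PP2-A1 (0.38 ± 0.145, 0.356). The 5 root markers summed to 436 to 954 RPKM in wild type and 450 to 733 RPKM in the knockdown line, nearly all of it PYK10. WOX5 was at 1.05 to 2.05 RPKM, COBL9 at 0 to 0.23 RPKM and EXPA7 at 0 to 0.05 RPKM. PLT1 was at 0 in all 8 libraries. PYK10 fell with age in wild type by 0.92 (adjusted p = 0.0389 in limma). The PYK10 call was lost in 10 of 16 alternatives, among them without any 1 wild-type library (adjusted p 0.0695 to 0.341) or either knockdown library of day 16 (0.0614 and 0.0618). The part of tissue makeup in the SEP3 values was not tested.

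The genes whose levels over the 8 libraries were most like SEP3 were found by Pearson correlation of log2(RPKM + 1), as a description of libraries that share 4 groups. They were AT1G27400 (r = 0.980, ribosomal protein L22p/L17e family), AT1G77940 (0.960, ribosomal protein L7Ae family), Tic20-II (0.958), AT5G17560 (0.954, BolA-like family) and SPT42 (0.953). Their own differences were much smaller than that of SEP3. AT1G77940 was at 277 to 347 RPKM in wild type and 402 to 538 RPKM in the knockdown line, a difference of 0.57 ± 0.0832 over both ages, and AT1G27400 differed by 0.23 ± 0.0793. As these genes were picked for their likeness to SEP3, which itself separates the genotypes, the differences are given with no test. The lowest correlations were those of AT3G23600 (-0.977, a hydrolase family), RGLG4 (-0.974) and IRX14-L (-0.967). Among the members the correlation with SEP3 was 0.704 for PI, 505th from the top of 17466 genes, and -0.232 for SEP4.

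The authors' deposited table of genes higher in the knockdown line at day 10 lists 321 loci, 2 of them members. In the authors' deposited table SEP3 has a fold of 7.09 (p = 9.66e-15) and PI a fold of 4.21 (p = 0.02) at day 10. In the authors' deposited table for day 16, of 211 loci, SEP3 has a fold of 10.37 (p = 1.13e-13) and PI a fold of 4.77 (p = 0.00899). The authors' deposited tables of lower genes, of 331 and 213 loci, hold no member, and list SVP at a signed fold of -8.49 and -6.42. Of the other listed genes, the authors' deposited tables hold MAF5 as higher at day 10 (fold 3.51, p = 0.02) and NAP as lower at day 16 (signed fold -3.36, p = 0.02), neither of which passed limma between genotypes. No source used here names the test behind these p-values, and PI is thus called in the authors' deposited tables and not in the limma fit.

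**Figure D5:**
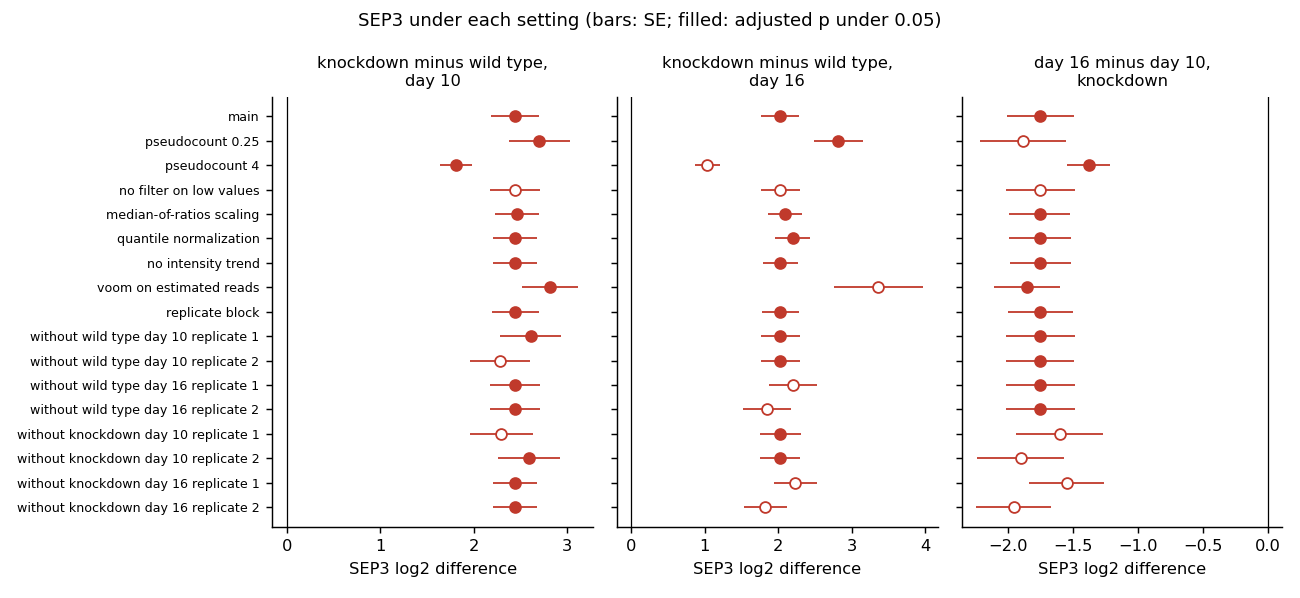
Difference of SEP3 on the log2 scale (horizontal axis, SE as bars) between genotypes at day 10 and at day 16 and between ages in the knockdown line, under the leading settings and 16 alternatives (rows). Filled points passed at an adjusted p under 0.05. All points keep their side of 0, and 13, 9 and 10 of the 16 alternatives passed.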

How the data were processed

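Sample titles gave the groups and replicate numbers. Libraries were made from total RNA, extracted with trizol, with a strand-specific mRNA kit, per the labels' protocols. The authors deposited RPKM values for 27655 loci, per the file headers; the file's own name says RPM, but low values step by 1 read per exon length, so the values were used as RPKM. Reads were placed on TAIR10, per the submitters' processing notes; no source used here gives aligner, counter or use of strand. The authors deposited 4 tables of changed genes that hold a linear fold (ratio) and a p-value for every locus, per the file headers. For lower genes the deposited fold carries a minus sign and is a signed score.

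Gene models, symbols and sequences came from RefSeq TAIR10.1 (27445 loci matched), whose nuclear chromosomes have the lengths of TAIR10. Depth was estimated from the steps, with 93.7% to 97.4% of low values within 0.1 of a whole read, and reads were estimated from it, with all 36 member values above 0 within 0.2 of a whole read. Genes that reached 1 RPKM in 2 or more of the 8 libraries (17467, 3 of the 8 members) were fitted as log2(RPKM + 1) in limma 3.58.1 (R 4.3.3) with an intensity trend. The fit had a coefficient per group, 4 residual and 5.8 prior degrees of freedom, two-sided tests and Benjamini-Hochberg adjustment over all genes, and a gene passed under 0.05. "Rose" and "fell" are used of genes that passed. In a simulation of the day 10 contrast on 16963 genes, 39 of 50 genes changed by 2-fold and all 50 changed by 4-fold were recovered, with 14 false calls. It assumed the same spread beyond counting error for every gene and changed no genes of low level. More changes were planted than genes passed in the real contrast. It therefore does not show how often a change in a low gene would be found here.

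The members and lists were chosen with earlier results of these data known. Named besides the members were listed genes that passed, known SEP3 regulators, the closest relatives, up to 4 genes per list by p, and the genes most and least correlated with SEP3. One list entry, A9, was dropped because the annotation has no such symbol. Alternatives were 2 pseudocounts, no filter, median-of-ratios and quantile scaling, no trend, voom (limma) on estimated reads, a replicate block and leaving out each library. Replicate numbers were not used as pairs: deviations of same-numbered libraries correlated at -0.239 to 0.329.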

Additional observations from a re-analysis of the deposited data

How the results depend on the processing

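SEP3 kept its direction between genotypes and with age in all 16 alternatives. The mean of both ages passed in all of them (limma adjusted p 0.000231 to 0.0124), and the age difference in wild type in none (0.0570 to 0.776). Without the filter on low values, where 22301 genes were tested, the call was lost at day 10 (2.45, adjusted p = 0.0535), at day 16 (2.03, 0.117) and with age in the knockdown line (-1.75, 0.134). At day 16 it was also lost with a pseudocount of 4 (1.04, 0.0900) and with voom on estimated reads (3.36, 0.259), and with age in the knockdown line with a pseudocount of 0.25 (-1.88, 0.0600); the cause was not tested. The difference of the genotype effect between ages changed sign with a pseudocount of 0.25 (0.11) and with voom (0.54). With 1 library left out, the SEP3 difference ran from 2.28 to 2.61 at day 10, from 1.82 to 2.23 at day 16, from -0.62 to -0.21 for the difference between ages, and from -1.96 to -1.55 with age in the knockdown line; a group left with 1 library was assumed to vary like the others.

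PI and SEP4 passed in none. Median-of-ratios and quantile scaling changed the sign of SEP4 at day 16 (0.028 and 0.095), of PI with age in wild type (-0.00022 and -0.21), of CLF (0.0051 and 0.026) and of AP2 (0.058 and 0.063; 0.026 with voom). Quantile scaling did so for RBCS1A (0.079) and median-of-ratios scaling for PYK10 (0.025). With 1 library left out, SEP4 ran from -0.66 to 0.27 at day 10, from -0.17 to 0.027 at day 16, from -0.36 to 0.10 over both ages, from -0.34 to 0.59 for the difference between ages, from -0.21 to 0.041 with age in wild type and from -0.43 to 0.50 in the knockdown line. PI ran from -0.17 to 0.40 for the difference between ages, from -0.023 to 0.068 with age in wild type and from -0.15 to 0.42 in the knockdown line, and could not be tested without replicate 1 of the knockdown at day 10 or replicate 2 at day 16. CLF ran from -0.21 to 0.093, AP2 from -0.093 to 0.061, PTL from -0.072 to 0.30, ROXY1 from -0.0031 to 0.19 and PYK10 from -0.14 to 0.032.

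With the replicate block SEP3 passed as before (adjusted p 0.00295, 0.0120 and 0.000231 between genotypes), and the block changed no call of a member. It raised the count of genes passing with age in wild type from 39 to 89, and a crossed pairing, added after seeing the data, gave 56. The median difference over all genes was -0.11 at day 16, and 0.0076 after median-of-ratios scaling, where SEP3 differed by 2.09. Over all settings the count of genes passing ran from 7 to 26 at day 10, 6 to 24 at day 16, 18 to 91 over both ages, 7 to 89 with age in wild type and 15 to 109 in the knockdown line. Depth limits SEP1, SEP2, AP3, AG and AP1, which had 13 reads or fewer in all.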
